A study of Homo sapiens with 2 samples.

Results

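Selective autophagy receptors carry ubiquitinated cargo to the autophagosome, and the genes of 5 of them, SQSTM1, NBR1, OPTN, CALCOCO2 and TAX1BP1, were examined here together with TBK1, the gene of a kinase that phosphorylates several of these receptors. These 6 genes were chosen by name from 20163 protein-coding genes of the annotation, with earlier results of these data known. The paper had already named SQSTM1 a direct NRF1 target, partly from the same data. Counts of members below are therefore not an independent comparison with all genes. NRF1 is the CNC transcription factor encoded by NFE2L1, and its binding had been mapped by ChIP-seq in HCT116 cells, a human colorectal cancer line, kept for 16 h in 1 µM of the proteasome inhibitor MG132. The data are the peaks of 1 NRF1 ChIP library, and an input library of cells given the same treatment was not analysed here. No untreated or NRF1-depleted cells were analysed, so that no value below compares conditions.

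The receptors share a common plan. Each binds ubiquitin on protein aggregates, damaged organelles or bacteria, and each binds ATG8 family proteins on the growing autophagosomal membrane through a short LC3-interacting motif. The p62 protein, the product of SQSTM1, also polymerises and condenses with ubiquitinated proteins into puncta, a process that NBR1 assists. The product of OPTN is optineurin and that of CALCOCO2 is NDP52, and both are best known from the removal of mitochondria and bacteria. The kinase TBK1 phosphorylates p62 and optineurin and thereby raises their affinity for ubiquitin. NRF1 acts as a heterodimer with a small MAF protein on the antioxidant response element (ARE), whose consensus is TGACNNNGC or TGAGNNNGC.

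The authors' list held 5683 peaks with scores from 50.00 to 3100 and a median of 91.86. MACS derives this score from the p-value of a peak, as its negative log10 multiplied by 10, and 44.3% of all peaks reached 100. With 1 library there is no replicate error, the number of reads behind a peak is unknown, and a difference between scores could not be set against the spread of repeated measurements. No test was therefore run, and the shares given for all genes, peaks or sites are the background for the counts of members. A peak was assigned to a gene when its centre lay within 20 kb of any transcription start site (TSS) of that gene.

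By this rule 3 of the 6 genes had a peak, SQSTM1, TBK1 and TAX1BP1, against 18.7% of all protein-coding genes. Within 2 kb of a TSS the count was 2 of 6, against 6.03%, since the TAX1BP1 peak lay farther away. NBR1, OPTN and CALCOCO2 had none in the window of 20 kb. In all 5 peaks were assigned, 2 to SQSTM1, 2 to TBK1 and 1 to TAX1BP1.

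The AREs of the longer form inside these peaks, and the only match in the TAX1BP1 peak, are shown first. AREs of the longer form, TGACTCAGC or TGAGTCAGC, were found inside 4 of the 5 peaks, and the TAX1BP1 peak held only a shorter match. Each sequence below is from hg19, runs 5′ to 3′ on the strand named, has 20 bases on each side of the site and shows the ARE in capitals.
SQSTM1 upstream peak, chr5:179246107-179246115, minus strand: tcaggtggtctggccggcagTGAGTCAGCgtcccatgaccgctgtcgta
SQSTM1 upstream peak, chr5:179246585-179246593, minus strand: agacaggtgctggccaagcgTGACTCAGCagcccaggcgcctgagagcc
SQSTM1 promoter peak, chr5:179247553-179247561, minus strand: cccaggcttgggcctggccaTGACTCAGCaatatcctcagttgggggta
TBK1 start-site peak, chr12:64846076-64846084, minus strand: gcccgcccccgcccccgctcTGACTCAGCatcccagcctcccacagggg
TBK1 downstream peak, chr12:64846924-64846932, minus strand: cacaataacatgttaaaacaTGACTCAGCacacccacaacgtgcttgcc
TAX1BP1 peak, chr7:27784901-27784909, plus strand: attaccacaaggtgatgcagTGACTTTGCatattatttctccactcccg
The word TGACTCAGC occurred in 4 of these sites, 1 in each SQSTM1 peak and 1 in each TBK1 peak, and each of the 4 was followed by A. Both features were common in the whole list. On chromosomes 1 to 22 and X, 3065 of the 3915 longer-form sites inside a peak read TGACTCAGC, and 2303 of those 3065 were followed by A. The TGACTCAGC sites of the SQSTM1 peaks, the only pair of the 4 member sites that was compared, agreed at 20 of the 49 bases printed, the word itself included.

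**Figure D1:**
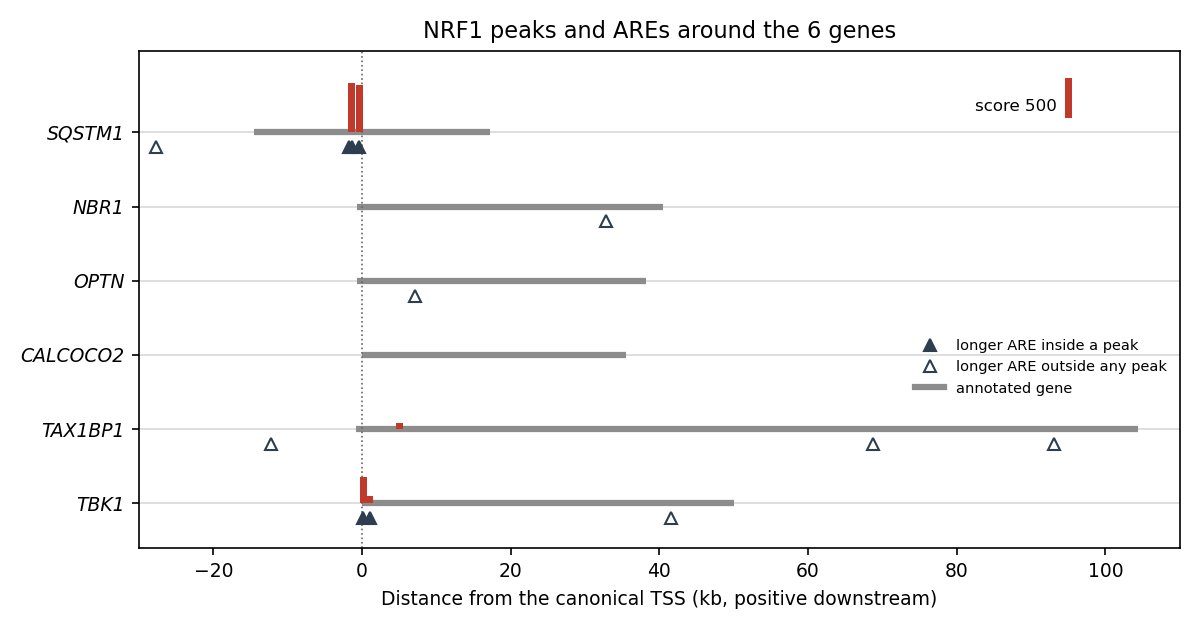
The map shows each of the 6 genes on a line of its own, with distance from the canonical TSS in kb on the x axis, the annotated gene as a grey bar, NRF1 peaks as red bars whose height is the MACS score (scale bar, 500), and AREs of the longer form within 20 kb of a TSS as triangles, filled inside a peak and open outside any peak. SQSTM1 and TBK1 carry their peaks next to the start, TAX1BP1 carries 1 low peak in the gene, and NBR1, OPTN and CALCOCO2 carry none.

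SQSTM1 lies on the plus strand of chromosome 5 and was the receptor gene with the strongest peaks. The upstream peak, chr5:179245963-179246947, was 985 bp wide and centred at -1450 bp from the canonical TSS, that is upstream of it, with a score of 616.46. The promoter peak, chr5:179247187-179247966, was 780 bp wide, was centred at -329 bp and reached across the TSS to 61 bp downstream, with a score of 593.29. Only 1.28% and 1.46% of all peaks scored at least as high as these, so that both stood near the top of the list. The peaks were separated by 239 bp that were not called, and their centres by 1121 bp.

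The starts of SQSTM1 transcripts are spread along the locus. The gene has 16 annotated transcripts with 14 distinct TSSs, and 3 transcripts span both peak centres, with neither centre in an exon of any of the 16. Seen from the nearest TSS of any transcript, the upstream peak was centred 488 bp away and the promoter peak 31 bp away. MGAT4B and MRNIP were the other genes with a TSS within 20 kb, at 12503 bp or more from either centre, so that SQSTM1 was the nearest gene.

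Pairs of peaks at the start of a gene, of any score, were uncommon in this list. Of all protein-coding genes 0.352%, that is 71 genes, had at least 2 peak centres within 2 kb of a TSS, and SQSTM1 and TBK1 were among them. The pairs depend on where a peak was taken to end, since the gaps were 239 and 296 bp, and once peaks within 500 bp of each other were merged neither gene had 2. When these 71 genes were ordered by the weaker of their 2 best peaks, SQSTM1 stood at rank 1 with 593.29 and TBK1 at rank 26 with 89.26. The next after SQSTM1 were MAFG, which encodes a small MAF partner of NRF1, with 528.72, and GCLC, the catalytic subunit of glutathione synthesis, with 382.55. MAFG and GCLC were picked with their values in view.

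The central 300 bases of each SQSTM1 peak are given because each holds an ARE of the longer form beside a poorer one. They are on the plus strand of hg19, where an ARE read on the minus strand appears as its reverse complement, and each match to the consensus on either strand is in capitals.
SQSTM1 upstream peak, chr5:179246306-179246605: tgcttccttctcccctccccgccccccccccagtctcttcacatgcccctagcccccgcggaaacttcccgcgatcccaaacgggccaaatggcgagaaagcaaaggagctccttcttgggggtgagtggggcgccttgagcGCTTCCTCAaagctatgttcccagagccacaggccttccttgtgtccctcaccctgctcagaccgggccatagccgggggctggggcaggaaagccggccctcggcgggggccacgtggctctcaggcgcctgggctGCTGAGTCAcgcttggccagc
SQSTM1 promoter peak, chr5:179247427-179247726: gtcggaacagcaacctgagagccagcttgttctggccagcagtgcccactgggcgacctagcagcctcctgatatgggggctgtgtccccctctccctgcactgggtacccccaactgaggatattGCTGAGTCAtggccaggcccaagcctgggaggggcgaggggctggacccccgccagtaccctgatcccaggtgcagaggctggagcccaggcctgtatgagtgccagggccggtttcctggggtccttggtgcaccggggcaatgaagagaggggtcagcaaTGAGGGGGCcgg
The upstream peak held 3 matches in its whole length, of which 2 were of the longer form, and the promoter peak held 2, of which 1 was. Among all 5673 peaks that could be searched, 87.4% held the consensus, 61.3% the longer form and 4.16% at least 2 sites of the longer form. Both SQSTM1 peaks were wide, at 985 and 780 bp against a median of 501 bp, and longer sequence can hold more matches. These shares were not matched for width. The 3 longer sites of SQSTM1 lay upstream, at -1794, -1316 and -348 bp from the canonical TSS. In the promoter peak the longer site was at -19 bp from the centre, and in the upstream peak the longer sites flanked the centre at -344 bp on one side and 134 bp on the other. The match nearest to the centre of the upstream peak was TGAGGAAGC, which is not of the longer form.

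How well each site fits the sequence bound elsewhere was scored with a weight matrix of 17 positions, built from the ARE nearest to the centre in 4953 peaks that did not belong to the 6 genes. The score is a sum of log2 ratios with a possible maximum of 21.65. The site of the SQSTM1 promoter peak scored 20.64, and 98.0% of all searched peaks had a best score no higher than that. The TGACTCAGC site of the upstream peak scored 18.24, which placed that peak at 66.3%, while the TGAGTCAGC site in the same peak scored 12.52. None of the shares of peaks by best score, here and below, was matched for width. The poorer matches scored 2.58 for TGAGGAAGC and 3.72 for TGAGGGGGC. The peak with the better site was thus the one with the slightly lower MACS score.

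**Figure D2:**
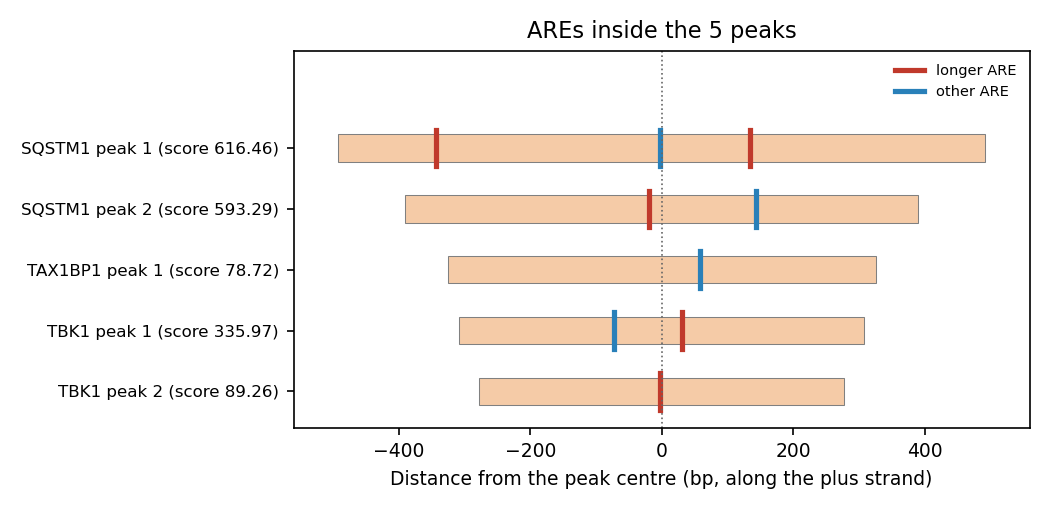
Each bar is 1 of the 5 peaks drawn to its width, with distance from the peak centre in bp on the x axis, and each vertical mark is an ARE, red for the longer form and blue for other matches to the consensus. A longer ARE lies 19 bp from the centre of the SQSTM1 promoter peak, 31 bp from that of the first TBK1 peak and 3 bp from that of the second, whereas the TAX1BP1 peak has only another match, 59 bp away.

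TBK1 lies on the plus strand of chromosome 12 and carried the next strongest peak among the 6 genes. The peak at the start site, chr12:64845742-64846357, was 616 bp wide, ran from -158 to 457 bp of the canonical TSS and scored 335.97, which 5.65% of peaks reached. The downstream peak, chr12:64846654-64847209, was 556 bp wide, was centred 1031 bp downstream of the TSS and scored 89.26, near the middle of the list, since 52.0% of peaks scored as high. Both centres lay in intron 1 of the canonical transcript. The annotation of TBK1 is dense, with 71 transcripts and 47 distinct TSSs, and the centre of the start-site peak fell in an exon of 1 of the 71.

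Each TBK1 peak held 1 ARE of the longer form, TGACTCAGC in both, 180 and 1028 bp downstream of the canonical TSS and 848 bp apart. The stronger peak had the poorer of the 2 sites by the matrix, 15.29 against 18.50, and the best scores placed the peaks at 36.6% and 69.1% of all searched peaks. The peaks also differed in base composition. The start-site peak was 74.4% G and C, higher than 99.3% of peaks or equal to them, and its ratio of observed to expected CpG was 0.93, whereas the downstream peak was 36.7% G and C. The SQSTM1 peaks were G and C rich too, with 67.3% upstream and 65.6% at the promoter. An lncRNA without a symbol starts on the opposite strand of the TBK1 locus, with its TSS 632 bp from the centre of the start-site peak and 250 bp from that of the downstream peak, so that the weaker peak was closer to the lncRNA than to TBK1, whose nearest TSS was 676 bp away.

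The central 300 bases of the TBK1 start-site peak, again on the plus strand with the AREs in capitals, show the longer site in the G and C rich surroundings of the start.
TBK1 start-site peak, chr12:64845900-64846199: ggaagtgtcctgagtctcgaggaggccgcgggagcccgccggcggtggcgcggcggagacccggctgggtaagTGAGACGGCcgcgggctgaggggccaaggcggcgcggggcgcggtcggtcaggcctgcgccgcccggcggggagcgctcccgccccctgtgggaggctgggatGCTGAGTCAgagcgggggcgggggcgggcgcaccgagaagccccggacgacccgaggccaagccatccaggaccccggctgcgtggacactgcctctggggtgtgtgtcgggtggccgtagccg
The other match in this peak, TGAGACGGC, lay 77 bp downstream of the canonical TSS and scored 6.55 by the matrix.

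TAX1BP1, on the plus strand of chromosome 7, encodes a receptor that takes part in the clearance of protein aggregates. Its peak, chr7:27784521-27785171, was 651 bp wide, centred 5065 bp downstream of the canonical TSS in intron 1, and scored 78.72, a value that 61.1% of peaks reached. It held 1 match to the consensus and none of the longer form. The match, TGACTTTGC, scored 12.04 by the matrix, and that placed the peak at 23.6% of the searched peaks. The peak was 37.9% G and C. TAX1BP1 was the nearest protein-coding gene, but an antisense lncRNA, TAX1BP1-AS1, had a TSS 4832 bp from the centre. The score of the best SQSTM1 peak was 7.83 times that of the TAX1BP1 peak and 1.83 times that of the best TBK1 peak, as ratios of negative log10 p-values and not of occupancy.

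For the 3 genes without a peak in the window, the nearest peaks lay well away and were weak. For CALCOCO2, on the plus strand of chromosome 17, it was 32986 bp from the last annotated TSS and 67.0 kb from the canonical one, with a score of 52.04, and ATP5MC1 was the gene with the nearest TSS. For NBR1, also on the plus strand of chromosome 17, it was 154.7 kb from a TSS, with a score of 67.65. For OPTN, on the plus strand of chromosome 10, it was 398.2 kb away, with a score of 64.70, and it lay 492 bp from a TSS of BEND7. The window of 20 kb cut through no close case. The farthest peak inside it was that of TAX1BP1, 5058 bp from a TSS with a score of 78.72, and the nearest outside was that of CALCOCO2, at that distance with 52.04.

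The scores were set against those of all genes. Ordered by the best peak within 20 kb of a TSS, SQSTM1 was at rank 100 of 3766 protein-coding genes with such a peak, TBK1 at 332 and TAX1BP1 at 2480, with a peak counted for each gene it lies near. Only 0.779% of all protein-coding genes had a peak of 300 or more within 2 kb of a TSS, and SQSTM1 and TBK1 did. The cut of 300 lies not far below the TBK1 score of 335.97, and no other cut is reported here, so that the share is a description only. In the order of the best peak within 2 kb, the genes next above SQSTM1 were GCLM (637.13), the modifier subunit of glutathione synthesis, and BLOC1S2 (634.48), and those next below were the proteasome gene PSMB7 (614.43) and TRIM16 (609.93). The neighbours of TBK1 were FOSL1 (342.26), CRK (338.79), FAM241B (334.30) and CYP4F11 (334.06). With 1 library these neighbours cannot be told apart by score.

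The proteasome subunit genes, the established targets of NRF1, give a scale for these values. All 33 had a peak within 2 kb of a TSS, with best scores from 90.61 at PSMA2 to 1128.13 at PSMD14 and a median of 311.38. The best SQSTM1 peak was exceeded by 7 of the 33 and that of TBK1 by 14, so that both fell inside the range of the proteasome genes, and that of TAX1BP1 fell below it. None of the 33 had 2 peaks within 2 kb of a TSS.

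**Figure D3:**
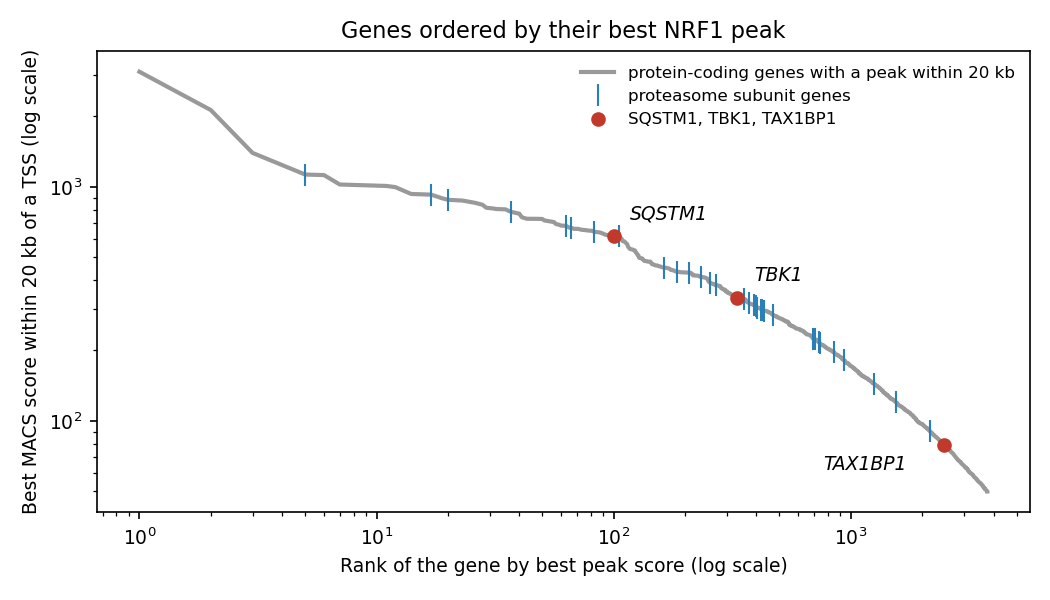
The line shows the 3766 protein-coding genes with a peak within 20 kb of a TSS, ordered by the best MACS score, with the rank and the score both on log axes, blue ticks for proteasome subunit genes and red points for the 3 members with a peak. SQSTM1 (616.46) and TBK1 (335.97) lie among the proteasome genes and TAX1BP1 (78.72) lies below them.

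The consensus ARE was present near all 6 genes, whether or not they had a peak. Within 2 kb of their TSSs there were 115 matches to the consensus, of which 8 lay inside a peak, 5 at SQSTM1 and 3 at TBK1. For all protein-coding genes the share inside a peak was 0.801%. The window around NBR1 held 11 matches, that of OPTN 12 and that of CALCOCO2 29, and none of these 52 was inside a peak. TAX1BP1 had 7, also outside, because its peak lies farther from the TSS. The searched window grows with the number of annotated TSSs, and TBK1 (36 matches) and CALCOCO2 have the most TSSs.

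The longer form was rarer and its sites can be listed. Within 20 kb of a TSS the 6 genes had 12 such sites, 4 at SQSTM1, 3 at TBK1, 3 at TAX1BP1, 1 each at NBR1 and OPTN and none at CALCOCO2. Of the 12, 5 lay inside a peak, against 9.11% of the 20986 sites within 20 kb of a TSS of any protein-coding gene and 7.43% of the 52720 sites on chromosomes 1 to 22 and X. Within 2 kb, all 3 sites of SQSTM1 and 2 of the 3 of TBK1 were inside a peak, against 11.3%, and the other 4 genes had no site at that distance. The TBK1 site outside, in intron 13, lay near an internal TSS and 41.6 kb downstream of the canonical one.

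Of the 7 sites outside peaks, 1 is printed for comparison with the sites inside peaks above, in the same format, because it came close to them by the matrix.
TAX1BP1, intron 13, chr7:27848447-27848455, plus strand: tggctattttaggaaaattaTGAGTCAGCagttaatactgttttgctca
By the matrix, the 7 sites outside peaks ranged from 9.02 to 18.09. The sites of NBR1 and OPTN and the upstream site of TAX1BP1 all scored 11.31 and have nearly the same flanking bases, so that these 3 are not independent of each other. The 5 sites inside peaks ranged from 12.52 to 20.64. The ranges overlap. The intronic TAX1BP1 site scored 18.09, above 2 of the 5 sites inside peaks, and yet the nearest peak centre was 63605 bp from it. Near all protein-coding genes the median was 18.03 inside peaks and 13.78 outside, a difference that is partly built in, because the matrix was made from peaks.

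**Figure D4:**
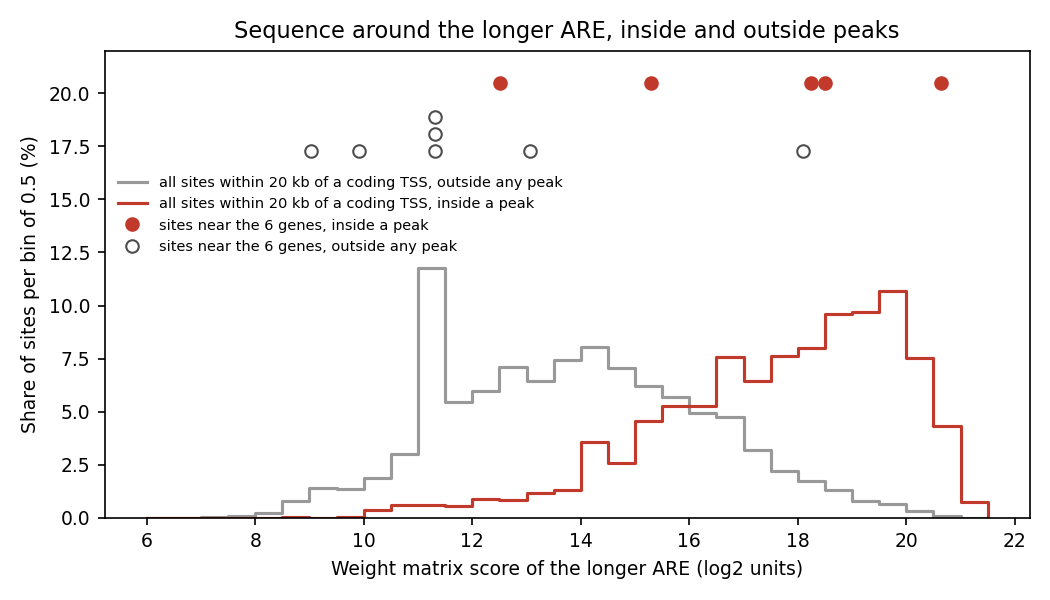
The lines give the share of longer-form AREs within 20 kb of a protein-coding gene TSS in each bin of 0.5 of the weight matrix score (log2 units, x axis), red for sites inside a peak and grey for those outside, and the points above give the 12 sites near the 6 genes, whose height has no meaning. The 5 member sites inside a peak score from 12.52 to 20.64, and 3 of the 7 outside, with nearly the same flanking bases, coincide at 11.31, in the bin where the grey line is highest. The lines count copies of a repeated sequence as separate sites, and these 3 are among the copies.

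Promoters in the RefSeq table (GRCh38.p14, 250 bases before to 50 after a start) were searched on both strands as well. The 6 genes have 11 entries there, and none held the longer form, which 0.977% of all 35116 entries held. The consensus was found in 29.1% of all entries. Among the members it was found in 1 of the 3 SQSTM1 entries (TGAGGGGGC), 1 of the 2 of NBR1 (TGAGTTCGC) and that of CALCOCO2 (TGAGATTGC and TGACCGGGC), and not in those of OPTN, TAX1BP1 and TBK1. The longer sites inside the peaks of SQSTM1 and TBK1 thus lie outside these short promoter windows, upstream of the canonical TSS in SQSTM1 and in intron 1 in TBK1. By the GENCODE starts used above they were closer to a TSS. From the nearest TSS of any transcript they lay 144, 622 and 50 bp away at SQSTM1 and 40 and 673 bp away at TBK1.

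The other genes of the pathway were taken from a list of 24, made up of 15 further selective autophagy receptors, 4 partners or relatives of TBK1 and 5 genes around p62. Of the 24, 9 had a peak within 20 kb of a TSS (37.5%) and 5 within 2 kb (20.8%), against 18.7% and 6.03% of all protein-coding genes. The list was made with earlier results known, among them the paper's report of NRF1 at ULK1. None had 2 peaks within 2 kb. Among the 15 receptors, 3 had a peak within 2 kb, RETREG1 (124.59) and ATL3 (59.03), which serve in the turnover of the endoplasmic reticulum, and PHB2 (126.32), a receptor of the inner mitochondrial membrane. The RETREG1 peak lies at an internal TSS. A stronger peak, with 431.51, lay 5311 bp from a TSS of PHB2, and it was within 20 kb of a TSS of other genes as well. The ATL3 peak was also the only peak near RTN3. Within 2 kb the highest scores on the list were at KEAP1 (648.88), the repressor of NRF2 that p62 binds, and at ULK1 (363.96), a kinase of p62 and of autophagy initiation. Both exceeded the best score of TBK1, and KEAP1 also that of SQSTM1. The subunit gene CSNK2A2 of casein kinase 2, a further p62 kinase, had a peak of 135.47 within 20 kb, while CSNK2A1 and CSNK2B had none. Of the TBK1 partners, TANK had a peak of 113.05, 13525 bp from a TSS, and AZI2, TBKBP1 and IKBKE had none.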

How the data were processed

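The authors sequenced 1 NRF1 ChIP library with single-end reads, extracted them in CASAVA 1.8.2, mapped them to hg19 with Bowtie2 2.2.6 and called peaks with MACS 1.4.2. The deposited list gives the position and score of each peak. Not given in the sources used here are the MACS settings, the treatment of duplicate reads and the control library. The input library was not analysed here.

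Peak starts were converted to browser coordinates and set against GRCh37 and the GENCODE annotation (version 44, lifted to that build). All TSSs of a gene were used, and sites were searched on both strands, so that a site and an overlapping one on the other strand count separately. The supplementary peak annotation of the paper, held as a shortened copy, listed the same 5 peaks for the 6 genes and no other. Expression values were not used. The matrix had 17 positions and a pseudocount of 1. In all 10 peaks on unplaced contigs or with undetermined bases were not searched. The members and lists were chosen with earlier results of these data known. Named genes were the 6 members, genes of the fixed lists with a peak within 2 kb or among the 3 highest of the others within 20 kb, the 2 genes on each side of SQSTM1 and TBK1 in the order of scores, and neighbours. Searches and distances were tested on simulated data. Scripts ran in Python 3.11.15 with pysam 0.24.0, numpy 2.4.6, matplotlib 3.10.9 and pandas 2.3.3. Alternatives were other windows, TSS sets and thresholds, merged peaks, other ARE forms, another matrix and scores per width.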

Additional observations from a re-analysis of the deposited data

How the results depend on the processing

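No paired analysis was possible because the list comes from 1 ChIP library and no result comes from a test. The number of member genes with a peak, 3 of 6, ranged from 2 with a score of at least 100 or a window of 2 or 5 kb to 4 with a window of 50 kb, and it was 3 with distances from the peak edge, the most upstream TSS alone or protein-coding transcripts alone. For these counts, shares of all protein-coding genes are given only for windows of 20 kb (18.7%) and 2 kb (6.03%). The counts at other settings, here and for the list of 24 below, therefore have no background. The 5 peaks became 3 when those within 500 bp were merged, since the pairs at SQSTM1 and TBK1 then joined, and also 3 with a score of at least 100, which removed TAX1BP1 and the weaker TBK1 peak. All 5 peaks held the consensus ARE, also in the central 200 bp, and 4 the longer form. Of the longer-form sites outside peaks, 1 of 6 remained with a window of 2 kb, in place of 7 of 12. By the best peak within 2 kb, SQSTM1 was at rank 42 and TBK1 at 128 of 1215 genes, an order with fewer genes. By score over width, SQSTM1 was at 85, TBK1 at 255 and TAX1BP1 at 3557. The list of 24 fell from 9 to 5 genes within 2 kb and to 6 with a score of at least 100. Genes with 2 or more peaks numbered 626 with a window of 20 kb and 61 after merging, with SQSTM1 and TBK1 then no longer among them. What limits all of this is the single library of unknown depth.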

Other observations

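The bases next to the longer ARE, examined after the member sites were seen, went with the presence of a peak across the genome. Of the sites on chromosomes 1 to 22 and X, 15.7% of those followed by A lay inside a peak, 11.8% of those followed by G, 3.31% of those followed by T and 1.46% of those followed by C. By the base before the site it was 18.3% for A, 11.6% for G, 2.07% for C and 0.555% for T. Copies of a repeated sequence were counted in these shares as separate sites, and few of them lay inside a peak. TGACTCAGC was inside a peak in 9.31% of 32923 sites and TGAGTCAGC in 4.29% of 19797. Counted the other way, of the 3915 sites inside a peak on these chromosomes, 2893 were followed by A, 2251 were preceded by A and 3065 read TGACTCAGC. These counts, and not the percentages above, are the background for the member sites inside peaks. Near the 6 genes, 4 of the 5 sites inside peaks and 2 of the 7 outside were followed by A, 2 of 5 against 1 of 7 were preceded by A, and 4 of 5 against 3 of 7 read TGACTCAGC. The 3 outside that read TGACTCAGC are the sites of NBR1 and OPTN and the upstream site of TAX1BP1. They have nearly the same flanking bases and are not independent of each other.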
